A study of Homo sapiens with 8 samples.

Results

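The genes described here are 47 genes of DNA replication and nucleotide supply, chosen by name for their known roles. The choice was made with earlier results of these data known. They were looked up in the expression tables of 2 human mammary epithelial lines, where 42 had a row of their own and 5 (MCM5, RRM2, FEN1, PRIM1 and CHAF1B) shared a row with other names. After the same filters, 41680 genes in all had a row of their own in both tables.

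RNA sequencing had been done on 8 samples in 4 groups of 2. In each line, cells were given 30 µM ginkgolic acid, which blocks the attachment of SUMO to proteins, or the solvent DMSO, for 3 days. The lines were a derivative labelled NOTCH1, which the labels describe as overexpressing the NOTCH1 intracellular domain in MCF10A, and MCF10A itself, a non-tumorigenic line. All groups were grown with horse serum, insulin, cholera toxin, epidermal growth factor and hydrocortisone, and the labels give neither the promoter of the NOTCH1 construct nor whether the line is a clone. The tables hold 1 value per gene and group in FPKM, which is fragments scaled for transcript length and for sequencing depth. With no spread over replicates there is no test of any difference, and "higher" and "lower" describe the values of the groups alone. A ratio is ginkgolic acid over DMSO on the log2 scale, where 1 stands for 2-fold.

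Replication origins are licensed when the origin recognition complex, CDC6 and CDT1 load the MCM helicase onto DNA, and they fire when CDC45 and the GINS complex join it. DNA polymerases, the sliding clamp PCNA and its loader RFC then copy the strands, while ribonucleotide reductase, thymidylate synthase and thymidine kinase supply deoxynucleotides. Many of these genes are transcribed under the control of E2F factors as cells enter S phase, and they are low in resting cells.

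NOTCH1 itself was at 12.4 FPKM (ginkgolic acid) against 5.03 (DMSO) in NOTCH1-labelled cells, and at 6.18 (ginkgolic acid) against 11.4 (DMSO) in MCF10A. Its DMSO values go against the label, so the line is called NOTCH1-labelled here and every direction between the lines rests on that label. Of 12 epithelial markers, 11 had a row in the NOTCH1-labelled table, at 14.2 to 990 FPKM, and 9 in that of MCF10A, at 5.68 to 180 FPKM. Of 22 markers of fibroblasts, blood cells and endothelium, 19 had a row. Their medians were 0.948 and 1.40 FPKM with ginkgolic acid and DMSO in NOTCH1-labelled cells, and 1.87 FPKM with ginkgolic acid against 1.09 with DMSO in MCF10A. Their summed levels were 62.6 FPKM under ginkgolic acid against 93.7 under DMSO in NOTCH1-labelled cells and 44.9 FPKM under ginkgolic acid against 61.9 under DMSO in MCF10A, with 1 marker, HBB in the MCF10A DMSO group, listed at 0. The highest of them was DCN, a fibroblast proteoglycan, at 31.8 FPKM under ginkgolic acid against 63.4 under DMSO in NOTCH1-labelled cells and 9.11 under ginkgolic acid against 18.0 under DMSO in MCF10A. Members at or near 1 FPKM lie at the median level of genes that these cells should lack, and the part of this background in their ratios was not tested.

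In NOTCH1-labelled cells, genes of nearly every step of replication stood at 2-fold or more above DMSO after ginkgolic acid. Of 42 genes, 21 were at least 2-fold higher, against 18.9% of all genes, and 1 was at least 2-fold lower, against 18.8%. The highest ratios belonged to the helicase factor CDC45, to TK1 and ORC1, and to the clamp loader and polymerase subunits RFC4 and POLE2. The median ratio of the 42 genes was 0.99, where that of all 19509 genes was 0.06. Among genes that reach 5 FPKM in a group, 19 of 35 members and 19.5% of all genes were at least 2-fold higher, and 1 member and 9.27% of all genes at least 2-fold lower. With a limit of 1.5-fold, 30 members were higher, against 31.1% of all genes, and 3 lower, against 28.9%. Of the 21, ORC1, GINS2 and TK1 passed the minimum of 1 FPKM only with ginkgolic acid. RPA3 lay just above the 2-fold line, at 1.00, and POLA2 just below it, at 0.97. In such bulk samples, more cells in S phase and more RNA of these genes per cell cannot be told apart.

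In MCF10A these genes lay on both sides of their DMSO values, mostly within 2-fold. Of 41 genes, 4 were at least 2-fold higher (ORC1, CDC6, RFC4 and GINS3) and 6 at least 2-fold lower (MCM10, CCNE2, PCNA, POLA1, CHAF1A and CCNE1). Of these 10, ORC1 passed the minimum of 1 FPKM only with ginkgolic acid. The 4 and the 6 stand against 24.3% and 15.2% of all genes, or 12.3% and 16.6% of those that reach 5 FPKM, among which 3 of 31 members were higher and 5 lower. The median ratio was −0.11, where that of all genes was 0.07. With the median of genes at 1 FPKM or more in both groups set to 0, which moves ratios in this table up by 0.11, 6 members were higher and 4 lower. The shares of all genes were not counted with this centring. With a limit of 1.5-fold, 8 were higher, against 34.1% of all genes, and 11 lower, against 26.7%. GINS2 stayed below 1 FPKM in both MCF10A groups and was not counted.

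**Figure D1:**
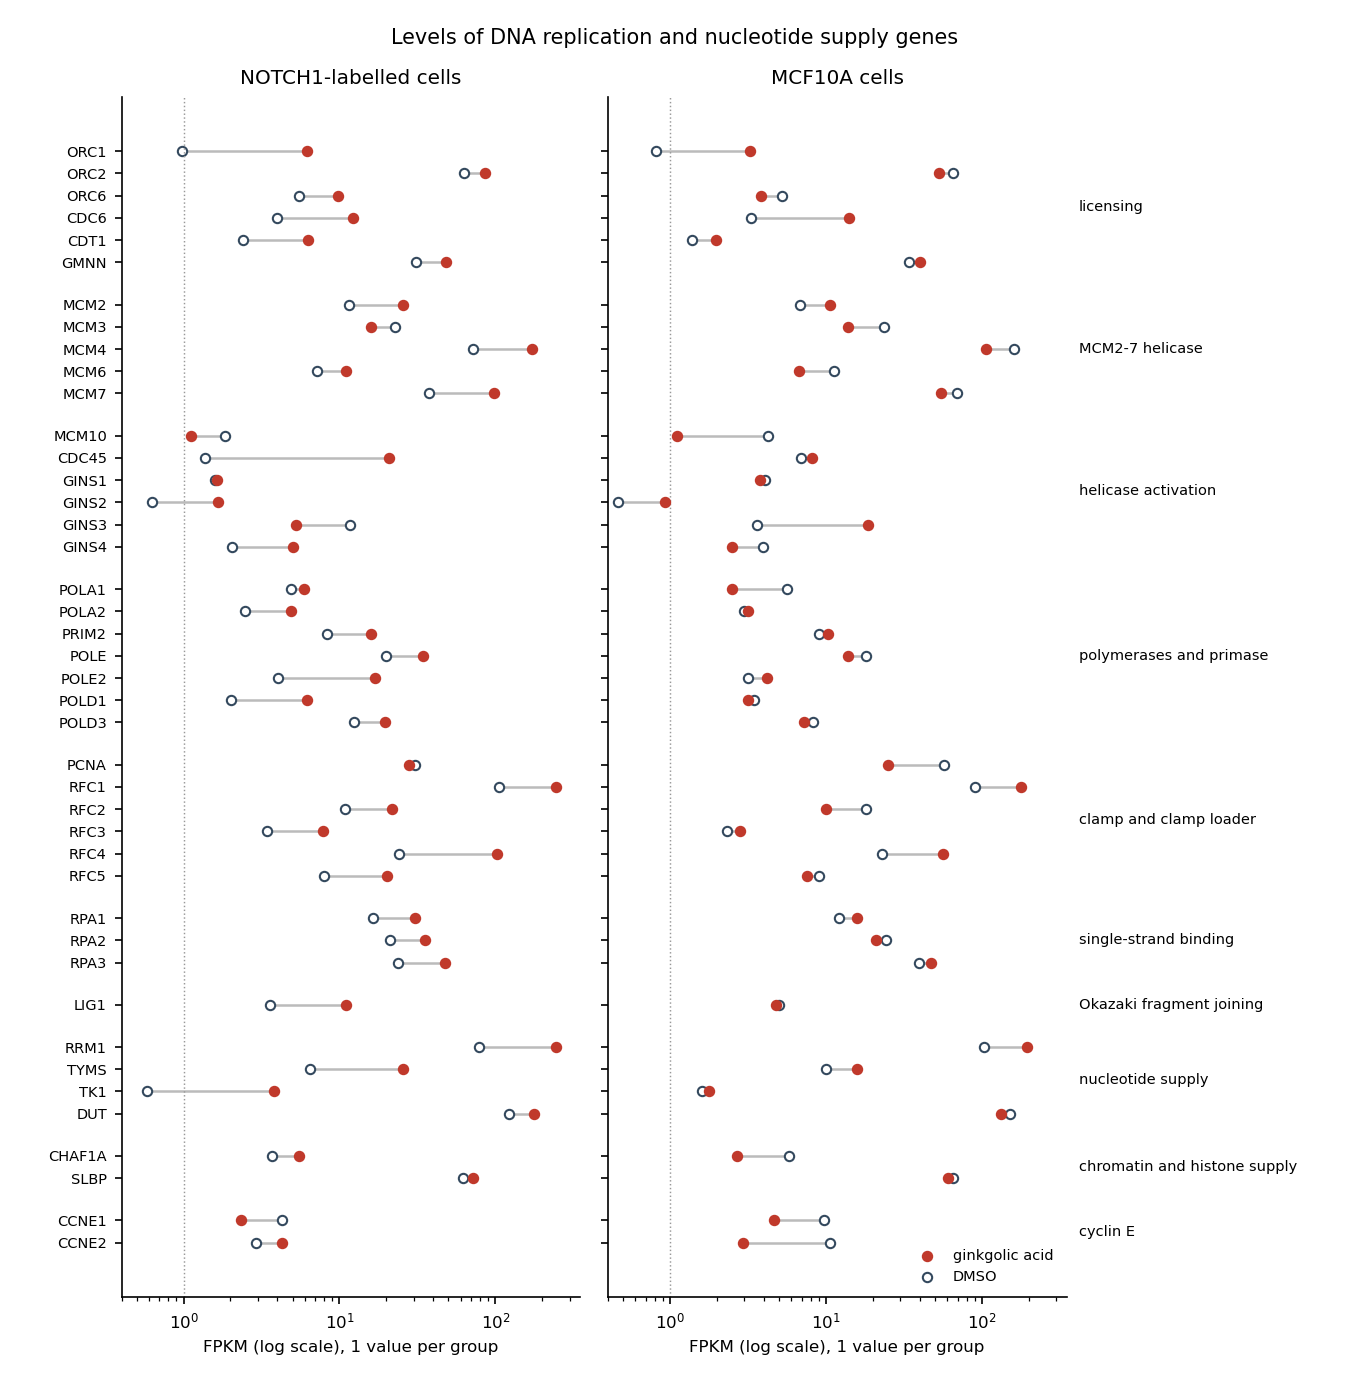
Levels of the 42 genes in FPKM on a log axis, with filled points for ginkgolic acid and open points for DMSO, 1 value per group, in NOTCH1-labelled cells (left) and MCF10A (right). The filled points lie to the right of the open ones for 37 of 42 genes on the left, while in MCF10A they lie on either side; the dotted line marks 1 FPKM.

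Within a line the levels of these genes spanned over 2 orders of magnitude. In NOTCH1-labelled cells they ran to 246 FPKM with ginkgolic acid, at a median of 16.4, and to 123 FPKM with DMSO, at a median of 7.57. In MCF10A the median was 9.11 FPKM with ginkgolic acid and 9.07 with DMSO. RFC1, RRM1, DUT and MCM4 were the 4 most abundant members in each of the 4 groups, in varying order, and GINS2 and TK1 were among the 5 least abundant in all 4. Members below 5 FPKM numbered 7 and 18 in NOTCH1-labelled cells with ginkgolic acid and DMSO, and 17 with ginkgolic acid against 13 with DMSO in MCF10A.

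Promoter sequence is shown for a few members because E2F control is the feature that these genes are best known to share, and because its letters are less frequent in the promoters of other genes. The windows, from RefSeq on GRCh38.p14, run from 250 bases before the start to 50 after it, and 40 of the 47 genes had one. An E2F site was searched as TTTGGCGC, TTTGCCGC, TTTCGCGC or TTTCCCGC on both strands, where overlapping matches were allowed. It was present in 19 of the 40 genes (47.5%), against 3.99% of 27305 genes in all and 5.93% of the 9586 with a window and a ratio in the NOTCH1-labelled table. It was also in 12 of 39 further replication genes (30.8%). POLE2, TYMS, MCM7 and CDC6 were at least 2-fold higher in NOTCH1-labelled cells, and PCNA was not. A gene with several windows counted if any of them held the letters. MCM7 has 3 windows and PCNA 2, and the one printed is that with the most matches. All 5 sequences were picked for holding the letters, which capitals mark. The windows are chr14:49688165-49688464 on the minus strand for POLE2, chr18:657403-657702 on the plus strand for TYMS, chr7:100101348-100101647 on the minus strand for MCM7, chr17:40287629-40287928 on the plus strand for CDC6 and chr20:5126573-5126872 on the minus strand for PCNA.
POLE2: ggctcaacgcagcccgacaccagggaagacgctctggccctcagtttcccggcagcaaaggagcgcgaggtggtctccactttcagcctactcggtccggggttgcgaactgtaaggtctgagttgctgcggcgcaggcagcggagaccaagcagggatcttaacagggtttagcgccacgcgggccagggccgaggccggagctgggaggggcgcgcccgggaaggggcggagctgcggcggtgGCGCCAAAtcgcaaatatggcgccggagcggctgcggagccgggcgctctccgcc
TYMS: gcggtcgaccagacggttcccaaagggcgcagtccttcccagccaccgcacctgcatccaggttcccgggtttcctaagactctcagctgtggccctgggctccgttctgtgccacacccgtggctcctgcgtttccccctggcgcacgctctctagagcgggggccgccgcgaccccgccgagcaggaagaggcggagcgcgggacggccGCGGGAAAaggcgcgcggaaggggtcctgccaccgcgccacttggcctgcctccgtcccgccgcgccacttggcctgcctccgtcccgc
MCM7: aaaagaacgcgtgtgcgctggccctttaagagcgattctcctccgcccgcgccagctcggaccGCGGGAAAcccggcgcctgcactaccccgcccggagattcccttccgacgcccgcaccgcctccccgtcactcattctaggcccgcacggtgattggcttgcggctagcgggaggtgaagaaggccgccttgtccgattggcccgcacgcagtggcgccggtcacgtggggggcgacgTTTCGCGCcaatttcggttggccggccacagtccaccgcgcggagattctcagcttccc
CDC6: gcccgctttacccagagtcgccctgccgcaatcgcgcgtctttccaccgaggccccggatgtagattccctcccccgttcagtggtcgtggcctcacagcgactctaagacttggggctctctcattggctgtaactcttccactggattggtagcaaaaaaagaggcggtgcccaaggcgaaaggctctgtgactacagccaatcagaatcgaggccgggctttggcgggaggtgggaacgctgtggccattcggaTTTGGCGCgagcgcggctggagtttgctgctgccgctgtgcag
PCNA: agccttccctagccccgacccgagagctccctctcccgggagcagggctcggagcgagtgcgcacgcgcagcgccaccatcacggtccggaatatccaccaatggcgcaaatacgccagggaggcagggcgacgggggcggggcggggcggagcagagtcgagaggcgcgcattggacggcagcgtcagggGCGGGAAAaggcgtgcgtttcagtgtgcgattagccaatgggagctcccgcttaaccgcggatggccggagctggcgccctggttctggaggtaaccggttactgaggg

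The match begins 5 bases before the start in POLE2, 39 before it in TYMS and 59 before it in PCNA. In MCM7 the 2 matches begin 187 and 9 bases before the start, and in CDC6 the match begins at base 8 of the transcript. The letters of the cell cycle element CHR, TTTGAA, were in 2 of 40 members (RRM1 and DUT), against 18.2% of all genes. Among 25 genes of G2 phase and mitosis that had a window, 19 held TTTGAA and 3 (12%) the E2F letters. The box CCAAT was in 23 of 40 members, 23 of 39 further replication genes and 21 of 25 mitotic genes, against 39.7% of all genes.

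Members with and without the E2F letters had overlapping ratios. In NOTCH1-labelled cells the 19 members with these letters had a median ratio of 0.97, and the 17 without them had a median of 1.01. In each class 9 lay 2-fold or more above DMSO, against 18.9% of all genes. Of these members only GINS3, which holds the letters, lay as far below it, against 18.8% of all genes. In MCF10A the medians were 0.02 over 18 members with the letters and −0.11 over 17 without them.

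Among origin recognition and licensing genes, ORC1 and CDC6 lay 2-fold or more above DMSO in both lines, and CDT1 in NOTCH1-labelled cells. ORC1, the largest subunit of the origin recognition complex (chromosome 1, 52838501 to 52870131 on hg19), was at 6.23 FPKM under ginkgolic acid against 0.981 under DMSO in NOTCH1-labelled cells, a ratio of 2.67. In MCF10A it was at 3.26 FPKM under ginkgolic acid against 0.819 under DMSO, a ratio of 1.995. CDC6, the ATPase that loads the helicase (chromosome 17, 38443885 to 38459171), was at 12.3 FPKM under ginkgolic acid against 3.97 under DMSO in NOTCH1-labelled cells, while MCF10A had 13.999 under ginkgolic acid against 3.30 under DMSO. CDC6 was thus 1 of 2 members with a lower ratio in NOTCH1-labelled cells (1.63) than in MCF10A (2.08).

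CDT1, the partner of CDC6 in loading, was at 6.27 FPKM (ginkgolic acid) against 2.41 (DMSO) in NOTCH1-labelled cells, and at 1.98 (ginkgolic acid) against 1.39 (DMSO) in MCF10A. GMNN encodes geminin, the inhibitor of CDT1, and was at 48.5 FPKM under ginkgolic acid against 30.9 under DMSO in NOTCH1-labelled cells, while MCF10A had 40.0 under ginkgolic acid against 34.1 under DMSO. The RNA of GMNN was thus at a far higher FPKM than that of CDT1 in every group, and it stayed within 2-fold in both lines. Protein levels were not measured. The ratio of the abundant subunit ORC2 was 0.45 in NOTCH1-labelled cells and −0.29 in MCF10A. That of ORC6, the smallest subunit, was 0.83 in NOTCH1-labelled cells and −0.45 in MCF10A.

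Of 5 genes of the MCM helicase, the ring that unwinds DNA ahead of the polymerases, 3 stood on different sides of DMSO in the 2 lines. MCM4 was at 173 FPKM (ginkgolic acid) against 72.3 (DMSO) in NOTCH1-labelled cells, and at 106 (ginkgolic acid) against 160 (DMSO) in MCF10A. MCM7, which holds the microRNA genes MIR25, MIR93 and MIR106B, was at 98.5 FPKM under ginkgolic acid against 37.4 under DMSO in NOTCH1-labelled cells, while MCF10A had 54.7 under ginkgolic acid against 69.0 under DMSO. A row of MIR25 itself was listed at 0 with ginkgolic acid and at 236 FPKM with DMSO in NOTCH1-labelled cells, and its part in the value of MCM7 was not tested. MCM6 was at 11.0 FPKM (ginkgolic acid) against 7.20 (DMSO) in NOTCH1-labelled cells, and at 6.72 (ginkgolic acid) against 11.3 (DMSO) in MCF10A. For MCM4, MCM7 and MCM6 the value was above DMSO in NOTCH1-labelled cells and below it in MCF10A, although only MCM4 and MCM7 passed 2-fold, and only in NOTCH1-labelled cells.

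MCM2 was at 25.4 FPKM under ginkgolic acid against 11.4 under DMSO in NOTCH1-labelled cells, while MCF10A had 10.7 under ginkgolic acid against 6.84 under DMSO, so it was above DMSO in both. MCM3 was at 16.02 FPKM (ginkgolic acid) against 22.7 (DMSO) in NOTCH1-labelled cells, and at 13.8 (ginkgolic acid) against 23.7 (DMSO) in MCF10A, so it was below DMSO in both and was the only helicase subunit with a row of its own that was below it in NOTCH1-labelled cells. MCM5 shares its row with an unnamed transcript, and that row was at 18.5 FPKM under ginkgolic acid against 6.43 under DMSO in NOTCH1-labelled cells, while MCF10A had 7.32 under ginkgolic acid against 7.43 under DMSO. The subunits form a complex with 1 copy of each, yet their levels per length differed widely within every group.

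Factors that activate the helicase held the widest spread of ratios. CDC45, which joins MCM and GINS in the active helicase (chromosome 22, 19466982 to 19508135), was at 20.8 FPKM under ginkgolic acid against 1.38 under DMSO in NOTCH1-labelled cells, a ratio of 3.91. In MCF10A it was at 8.20 FPKM under ginkgolic acid against 6.97 under DMSO, a ratio of 0.23. Its DMSO level was low in NOTCH1-labelled cells alone, near the median of 1.40 FPKM of the other cell types' markers in that group. With a pseudocount of 1 FPKM its ratio in that line was 3.19. Its value with ginkgolic acid in that line was the highest of its 4. MCM10, which acts at the start of fork movement, was at 1.12 FPKM (ginkgolic acid) against 1.84 (DMSO) in NOTCH1-labelled cells, and at 1.12 (ginkgolic acid) against 4.27 (DMSO) in MCF10A.

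The genes of the GINS complex differed in direction. GINS4 was at 5.06 FPKM under ginkgolic acid against 2.05 under DMSO in NOTCH1-labelled cells, while MCF10A had 2.49 under ginkgolic acid against 3.93 under DMSO. GINS1 was at 1.63 FPKM (ginkgolic acid) against 1.60 (DMSO) in NOTCH1-labelled cells, and at 3.80 (ginkgolic acid) against 4.06 (DMSO) in MCF10A, close to its DMSO value in both lines. GINS2 was at 1.66 FPKM under ginkgolic acid against 0.629 under DMSO in NOTCH1-labelled cells, while MCF10A had 0.934 under ginkgolic acid against 0.464 under DMSO, at the level of the other cell types' markers. GINS3 was at 5.25 FPKM (ginkgolic acid) against 11.6 (DMSO) in NOTCH1-labelled cells, and at 18.7 (ginkgolic acid) against 3.62 (DMSO) in MCF10A. It was the only member beyond 2-fold in opposite directions. Of all genes, 4.88% were likewise higher in MCF10A and lower in NOTCH1-labelled cells.

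Of the polymerase genes, POLE2 and POLD1 were at least 2-fold higher in NOTCH1-labelled cells and within 2-fold in MCF10A. POLE2, the second subunit of DNA polymerase epsilon (chromosome 14, 50110273 to 50155140), was at 16.8 FPKM under ginkgolic acid against 4.01 under DMSO in NOTCH1-labelled cells, while MCF10A had 4.18 under ginkgolic acid against 3.19 under DMSO. POLD1, the catalytic subunit of DNA polymerase delta (chromosome 19, 50887593 to 50921270), was at 6.18 FPKM (ginkgolic acid) against 2.02 (DMSO) in NOTCH1-labelled cells, and at 3.15 (ginkgolic acid) against 3.46 (DMSO) in MCF10A. POLE, the catalytic subunit of polymerase epsilon, was at 34.3 FPKM under ginkgolic acid against 19.7 under DMSO in NOTCH1-labelled cells, while MCF10A had 13.96 under ginkgolic acid against 18.3 under DMSO. All 7 genes of this role were above DMSO in NOTCH1-labelled cells, with ratios of 0.27 to 2.07, and 4 of 7 were below it in MCF10A.

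POLA1, the catalytic subunit of polymerase alpha that extends primers, was at 5.89 FPKM (ginkgolic acid) against 4.89 (DMSO) in NOTCH1-labelled cells, and at 2.50 (ginkgolic acid) against 5.64 (DMSO) in MCF10A. It holds the small RNA gene SCARNA23, whose own row was at 50.2 FPKM under ginkgolic acid against 71.2 under DMSO in NOTCH1-labelled cells, while MCF10A had 151 under ginkgolic acid against 143 under DMSO. The part of SCARNA23 in the value of POLA1 was not tested. The ratio of its partner POLA2 was 0.97 in NOTCH1-labelled cells and 0.10 in MCF10A. That of PRIM2, the large primase subunit, was 0.93 in NOTCH1-labelled cells and 0.19 in MCF10A, and that of the polymerase delta subunit POLD3 was 0.66 in NOTCH1-labelled cells and −0.19 in MCF10A. The primase gene PRIM1 shares its row with the far more abundant NACA, so its own level cannot be read. That row read 3606 FPKM under ginkgolic acid against 3688 under DMSO in NOTCH1-labelled cells, and 2959 under ginkgolic acid against 3464 under DMSO in MCF10A.

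The sliding clamp and its loader differed in direction. PCNA, the clamp that tethers polymerases to DNA (chromosome 20, 5095599 to 5107272), was at 27.8 FPKM (ginkgolic acid) against 30.3 (DMSO) in NOTCH1-labelled cells, and at 25.2 (ginkgolic acid) against 57.1 (DMSO) in MCF10A. Its values with ginkgolic acid were alike in both lines, and the DMSO value of MCF10A stood apart. By contrast, RFC1 to RFC5, the loader subunits, were each at least 2-fold higher in NOTCH1-labelled cells.

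RFC4 was at 102 FPKM under ginkgolic acid against 24.03 under DMSO in NOTCH1-labelled cells, while MCF10A had 56.7 under ginkgolic acid against 22.9 under DMSO, beyond 2-fold in both. RFC1, the large subunit, was at 246 FPKM (ginkgolic acid) against 105 (DMSO) in NOTCH1-labelled cells, and at 179 (ginkgolic acid) against 90.8 (DMSO) in MCF10A, where its ratio of 0.98 lay just inside 2-fold. RFC2 was at 21.7 FPKM under ginkgolic acid against 10.8 under DMSO in NOTCH1-labelled cells, while MCF10A had 10.0 under ginkgolic acid against 18.1 under DMSO. RFC3 and RFC5 had ratios of 1.18 and 1.34 in NOTCH1-labelled cells, and of 0.29 and −0.25 in MCF10A. RFC4 overlaps EIF4A2 on the other strand, and the tables do not state whether strand was used in counting.

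The 3 subunits of replication protein A, which coats single-stranded DNA, were close to each other in NOTCH1-labelled cells. There RPA1, RPA2 and RPA3 had ratios of 0.90, 0.73 and 1.00, and in MCF10A of 0.38, −0.22 and 0.25. LIG1, the ligase that seals Okazaki fragments (chromosome 19, 48618703 to 48673782), was at 11.0 FPKM (ginkgolic acid) against 3.60 (DMSO) in NOTCH1-labelled cells, and at 4.83 (ginkgolic acid) against 5.04 (DMSO) in MCF10A. FEN1, the nuclease that trims these fragments, shares its row with FADS2, and that row was at 4.61 FPKM under ginkgolic acid against 6.36 under DMSO in NOTCH1-labelled cells, while MCF10A had 5.66 under ginkgolic acid against 11.7 under DMSO.

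Genes of deoxynucleotide supply had the highest median ratio of the roles with more than 1 gene in NOTCH1-labelled cells, 1.82, and a median of 0.40 in MCF10A. RRM1, the large subunit of ribonucleotide reductase (chromosome 11, 4115937 to 4160106), was at 246 FPKM (ginkgolic acid) against 78.6 (DMSO) in NOTCH1-labelled cells, and at 196 (ginkgolic acid) against 103 (DMSO) in MCF10A. The row that RRM2, the small subunit, shares with an unnamed transcript was at 98.5 FPKM under ginkgolic acid against 6.64 under DMSO in NOTCH1-labelled cells, a ratio of 3.89, and at 41.3 FPKM under ginkgolic acid against 18.0 under DMSO in MCF10A, a ratio of 1.19. RRM1 and the shared row of RRM2 were thus above DMSO in both lines. The ratio of the shared row was the higher, in MCF10A 1.19 against 0.93 for RRM1. The part of the unnamed transcript in that row was not tested.

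TYMS, which makes thymidylate, was at 25.6 FPKM under ginkgolic acid against 6.46 under DMSO in NOTCH1-labelled cells, while MCF10A had 15.8 under ginkgolic acid against 10.0 under DMSO. TK1, the thymidine salvage kinase of S phase (chromosome 17, 76170161 to 76183285), was at 3.81 FPKM (ginkgolic acid) against 0.581 (DMSO) in NOTCH1-labelled cells, and at 1.79 (ginkgolic acid) against 1.61 (DMSO) in MCF10A. DUT, which removes dUTP, was abundant and stayed within 2-fold, at 176 FPKM under ginkgolic acid against 123 under DMSO in NOTCH1-labelled cells, while MCF10A had 133 under ginkgolic acid against 152 under DMSO. The ratio of TK1 rests on a DMSO level at which markers of absent cell types also lie.

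Cyclin E genes, whose products start S phase with CDK2, were not among the genes at least 2-fold higher. CCNE1 (chromosome 19, 30302805 to 30315215) was at 2.33 FPKM (ginkgolic acid) against 4.27 (DMSO) in NOTCH1-labelled cells, and at 4.68 (ginkgolic acid) against 9.78 (DMSO) in MCF10A, below DMSO in both. CCNE2 was at 4.27 FPKM under ginkgolic acid against 2.91 under DMSO in NOTCH1-labelled cells, while MCF10A had 2.96 under ginkgolic acid against 10.7 under DMSO. CHAF1A, the large subunit of the histone chaperone that acts behind forks, was at 5.53 FPKM (ginkgolic acid) against 3.71 (DMSO) in NOTCH1-labelled cells, and at 2.71 (ginkgolic acid) against 5.82 (DMSO) in MCF10A. SLBP, which binds histone mRNA, had a ratio of 0.21 in NOTCH1-labelled cells and −0.11 in MCF10A. CHAF1B, the middle subunit of the chaperone, shares its row with 7 other names, and the ratio of that row was 0.03 in NOTCH1-labelled cells and 0.13 in MCF10A.

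**Figure D2:**
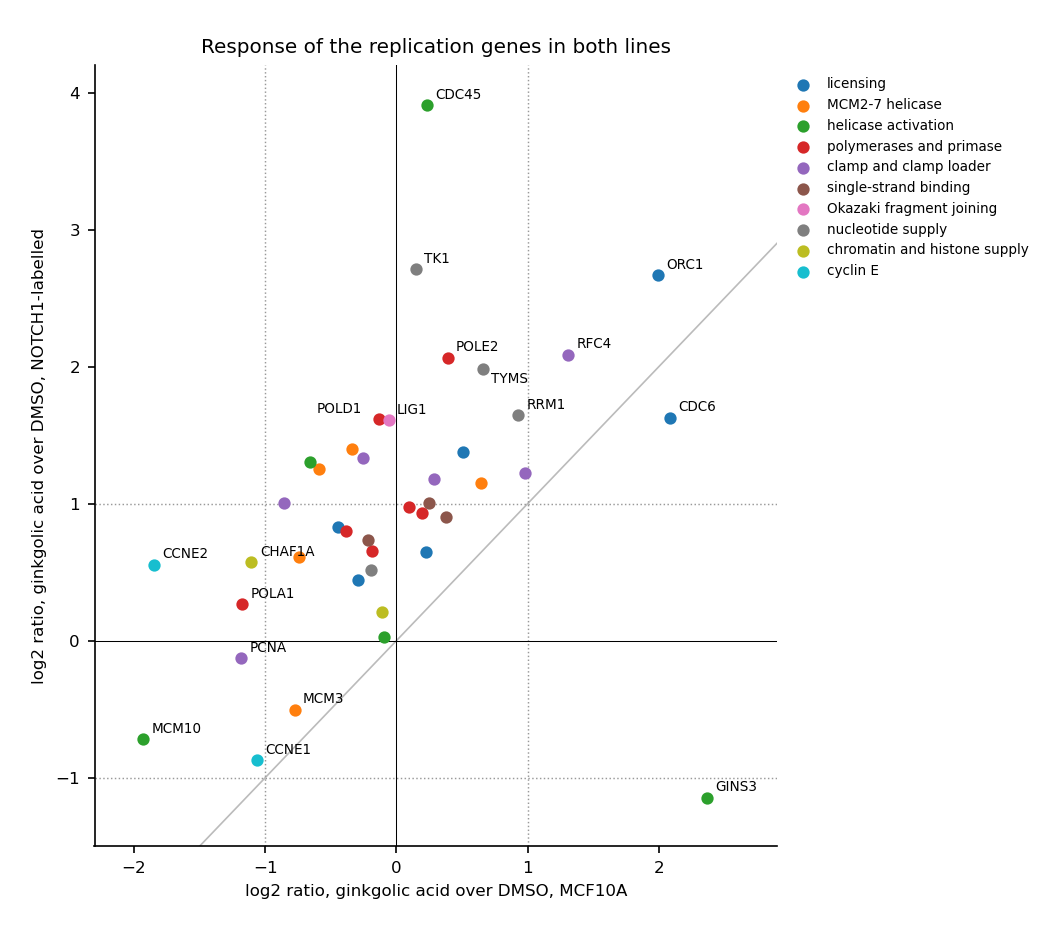
Log2 ratio of ginkgolic acid over DMSO for 41 genes in MCF10A (horizontal) and NOTCH1-labelled cells (vertical), coloured by role, with dotted lines at 2-fold and a grey line where both ratios are equal. Points lie above the grey line except for CDC6 and GINS3, and CDC45 and TK1 stand highest, at 3.91 and 2.71.

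The ratio of nearly every member stood higher in NOTCH1-labelled cells than in MCF10A. Of the 41 genes counted in both lines this held for 39, against 57.4% of all 15498 genes, with CDC6 and GINS3 as exceptions. A higher ratio is not always a wider departure from DMSO, since MCM10, PCNA, POLA1, CHAF1A, CCNE1 and CCNE2 lay further from it in MCF10A, below it. It was higher by at least 1 for 19 of 41 genes, against 21.5% of all genes, and lower by at least 1 for 1, against 22.4%. The widest differences were 3.68 for CDC45, 2.57 for TK1 and 2.40 for CCNE2, and in the other direction −3.51 for GINS3. The median difference of the members was 0.89, and that of all genes 0.22. With the median ratio of genes at 1 FPKM or more in both groups removed from each table, that of the members was 0.64.

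By pattern, 3 genes (ORC1, CDC6 and RFC4) were at least 2-fold higher in both lines, against 5.16% of all genes, and 0 at least 2-fold lower in both, against 4%. ORC1 had DMSO levels below 1 FPKM in both lines. A further 17 of 41 were at least 2-fold higher in NOTCH1-labelled cells and within 2-fold in MCF10A, against 10.3% of all genes. The 6 genes that were lower in MCF10A were all within 2-fold in NOTCH1-labelled cells, a pattern of 9.21% of all genes, and 14 genes stayed within 2-fold in both, against 47.9%. Across the 41 genes the ratios of the lines had a Pearson r of 0.39 and a Spearman rho of 0.56, and without GINS3 these were 0.63 and 0.68. Over 11775 genes at 1 FPKM or more in all 4 groups they were 0.30 and 0.28. These values run over genes of the same libraries and describe them only.

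**Figure D3:**
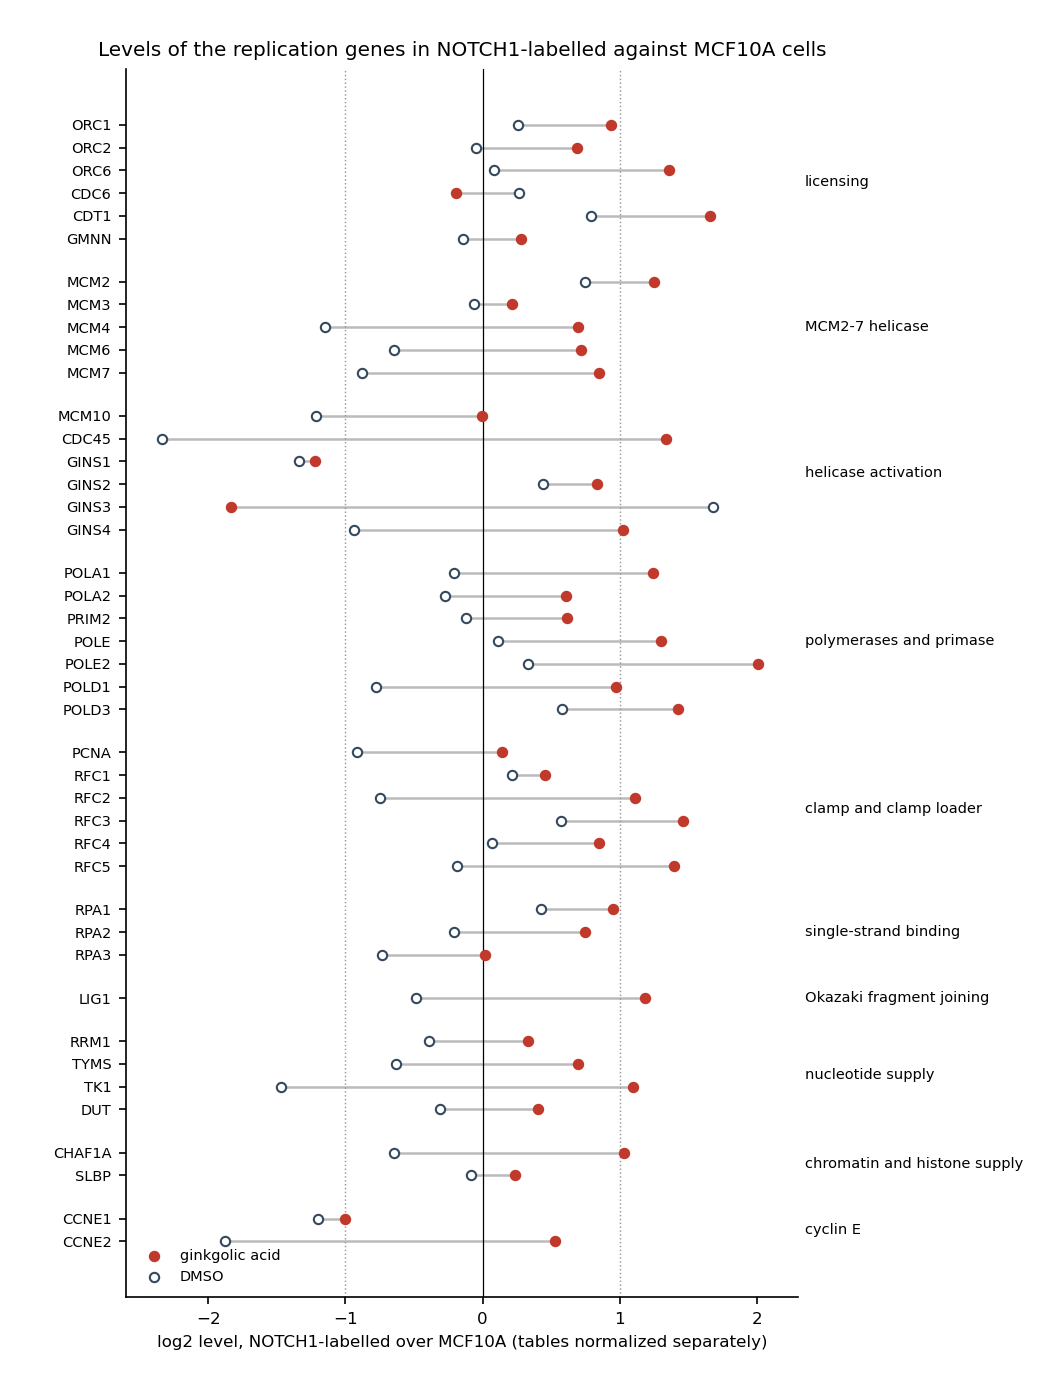
Log2 level in NOTCH1-labelled cells over MCF10A for the 42 genes, with filled points for ginkgolic acid and open points for DMSO. For 25 genes the open point lies left of 0 and the filled point right of it; the tables were normalized separately, so the place of 0 carries an unknown factor.

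Levels set side by side across the separately normalized tables differed in opposite directions with ginkgolic acid and with DMSO. With ginkgolic acid, 15 of 42 members were at least 2-fold higher in NOTCH1-labelled cells than in MCF10A, against 20.0% of all genes, and 3 were at least 2-fold lower, against 13.3%. With DMSO, 1 of 40 was at least 2-fold higher, against 25.9% of all genes, and 7 were at least 2-fold lower, against 10.2%. The 7 were MCM4, MCM10, CDC45, GINS1, TK1, CCNE1 and CCNE2. The median log2 level of the members was 0.79 with ginkgolic acid and −0.24 with DMSO, where that of all genes was 0.29 with ginkgolic acid and 0.20 with DMSO.

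Of the 41 genes counted in both lines, 25 were below MCF10A with DMSO and above it with ginkgolic acid, against 29.3% of all genes, among them CDC45, TK1, MCM4 and LIG1. With the medians across the tables removed, these were 19 of 41, against 21.2%. A further 11 were above MCF10A with both, against 33.8% of all genes, such as POLE2 and MCM2. MCM10, GINS1 and CCNE1 were below it with both, against 14.1% of all genes. CDC6 and GINS3 alone were above it with DMSO and below it with ginkgolic acid, against 22.8% of all genes. The differences between the lines hold the level that the cells had with DMSO as well as that with ginkgolic acid.

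**Figure D4:**
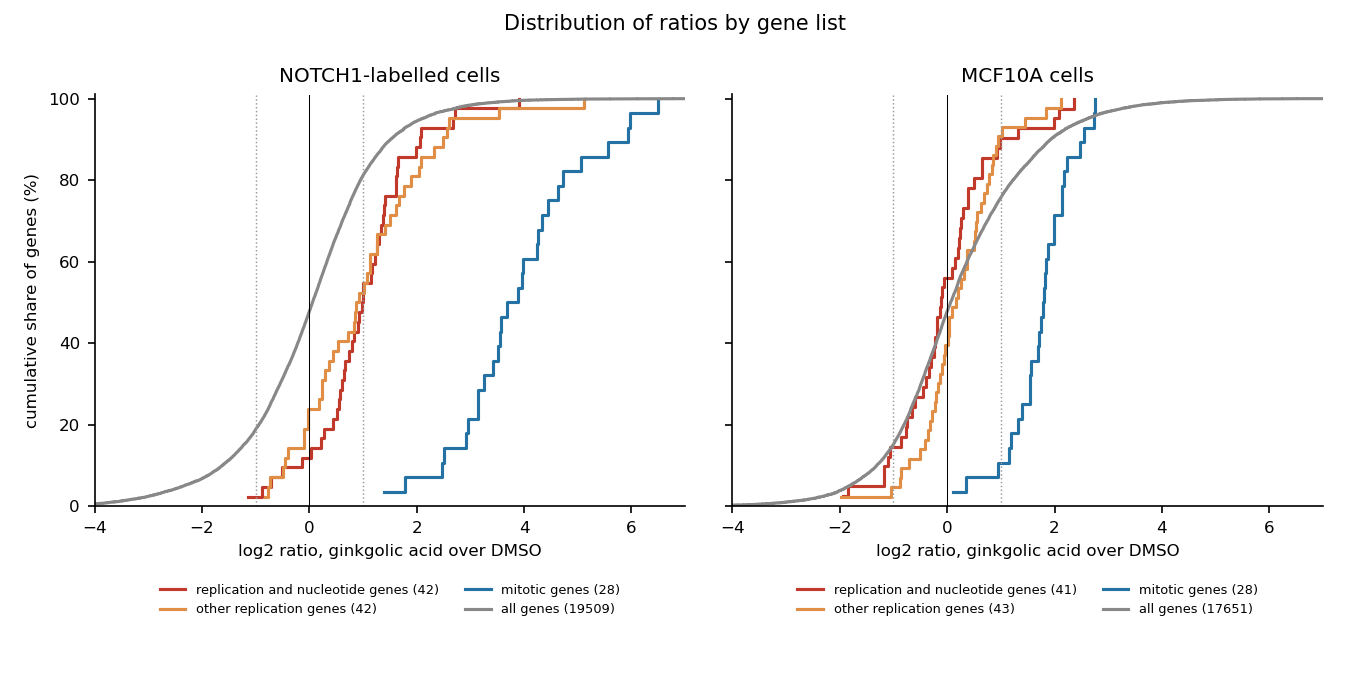
Cumulative share of genes (percent) against the log2 ratio of ginkgolic acid over DMSO, in NOTCH1-labelled cells (left) and MCF10A (right), for the replication and nucleotide genes, other replication genes, mitotic genes and all genes, with the number of genes in brackets. On the left both replication curves lie between those of all genes and the mitotic genes, and on the right they lie near that of all genes.

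Other genes of the pathway were counted in the same way. In NOTCH1-labelled cells, 20 of 42 further replication genes lay 2-fold or more above DMSO, against 18.9% of all genes. As far below it lay 0, against 18.8%, and the median ratio was 0.90. In MCF10A, 4 of 43 were higher, against 24.3% of all genes, and 2 lower, against 15.2%, with a median of 0.17. CCNA2, the cyclin of S and G2 phase, was at 68.4 FPKM under ginkgolic acid against 1.98 under DMSO in NOTCH1-labelled cells, while MCF10A had 25.02 under ginkgolic acid against 5.73 under DMSO. CCNA1, the other cyclin A, had a ratio of 3.53 in NOTCH1-labelled cells and 1.84 in MCF10A. CHTF18, of an alternative clamp loader, had a ratio of 2.61 in NOTCH1-labelled cells and 0.56 in MCF10A. CHTF8, of the same loader, had a ratio of −0.49 in NOTCH1-labelled cells and −1.99 in MCF10A.

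Of 35 further genes of nucleotide synthesis and salvage, 11 lay 2-fold or more above DMSO in NOTCH1-labelled cells, against 18.9% of all genes. As far below it lay 2, against 18.8%, and the median was 0.71. In MCF10A, 3 of 36 were higher, against 24.3% of all genes, and 6 lower, against 15.2%, with a median of −0.20. DTYMK, the kinase that follows TYMS and TK1 in making dTTP, was at 30.9 FPKM under ginkgolic acid against 6.81 under DMSO in NOTCH1-labelled cells. In MCF10A it was at 9.22 under ginkgolic acid against 11.8 under DMSO. UMPS, of pyrimidine synthesis, was low with ginkgolic acid in both lines, at 11.3 FPKM (ginkgolic acid) against 45.0 (DMSO) in NOTCH1-labelled cells, and at 7.42 (ginkgolic acid) against 30.8 (DMSO) in MCF10A. MTHFD2, of mitochondrial folate metabolism, was at 151 FPKM under ginkgolic acid against 41.9 under DMSO in MCF10A. In NOTCH1-labelled cells it was at 157 under ginkgolic acid against 62.9 under DMSO. The muscle-type adenylosuccinate synthase ADSSL1 had a ratio of 2.25 in NOTCH1-labelled cells and 1.63 in MCF10A.

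For scale, the ratios of replication genes were set beside those of 28 genes of G2 phase and mitosis. In NOTCH1-labelled cells the 28 lay 2-fold or more above DMSO, against 18.9% of all genes. Their median ratio was 3.79, against a median of 0.99 for the replication genes. In MCF10A 25 of 28 were higher, against 24.3% of all genes. Their median there was 1.79, against −0.11 for the replication genes. The lowest ratio among the mitotic genes was 1.39 in NOTCH1-labelled cells and 0.11 in MCF10A.

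The regulators of the E2F family did not follow one direction. Of 16 E2F, RB and associated genes, 4 (25%) lay 2-fold or more above DMSO in NOTCH1-labelled cells, against 18.9% of all genes. As far below it lay 3 (18.8%), against 18.8% of all genes. In MCF10A 2 of 15 (13.3%) were higher, against 24.3% of all genes, and 3 (20%) lower, against 15.2%. E2F1, an activator of replication genes, was at 0.269 FPKM under ginkgolic acid against 0.196 under DMSO in NOTCH1-labelled cells, while MCF10A had 0.143 under ginkgolic acid against 0.733 under DMSO, below 1 FPKM in all 4 groups. E2F7, a repressor of the family, was at 9.41 FPKM under ginkgolic acid against 1.24 under DMSO in NOTCH1-labelled cells. In MCF10A it was at 1.98 under ginkgolic acid against 0.615 under DMSO. E2F4, which acts mainly in resting cells, was at 10.2 FPKM under ginkgolic acid against 37.0 under DMSO in MCF10A. In NOTCH1-labelled cells it was at 11.2 under ginkgolic acid against 27.2 under DMSO.

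Rows of some members may hold reads of other genes. In GENCODE release 29, 7 of the 42 genes hold annotated small RNAs (MCM7, GINS3, POLA1, PRIM2, POLE2, RFC1 and RFC3), 12 overlap another coding gene and 6 have named pseudogenes. For 12 genes, CCNE2 and TYMS most of all, the position in the table spans more than 1.5 times the length of the gene, so positions are printed only for other genes. Without the 12 genes that overlap a coding gene, 13 of 30 were at least 2-fold higher in NOTCH1-labelled cells, against 18.9% of all genes. In MCF10A 3 of 30 were, against 24.3% of all genes. Genes that overlap others were not taken out of these shares. The part of shared reads in single ratios was not tested.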

How the data were processed

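The authors deposited 1 table per line, and per the file headers its values are FPKM, 1 per gene and group. The submitters' processing notes name Cuffdiff 2.1.1, Cufflinks 2.1.1, Bowtie2 2.1.0 and TopHat2 2.0.8b, and the build GRCh37 (hg19). RNA came from RNeasy columns and ScriptSeq Complete Gold libraries, per the labels' protocols. Not given in the sources used here are the annotation, the settings and how both samples of a group were merged; depth is unknown.

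Rows without a name, rows joining several names, short genes of less than 200 bases, other contigs and repeated symbols were left out, which left 41732 genes for MCF10A and 41763 for the NOTCH1 table. A gene counted with at least 1 FPKM in either group and no 0. The planned fit needed values per sample, so a size rule of 2-fold took its place, and counts and medians stand beside those of all genes. The members and lists were chosen with earlier results of these data known. All members may be named; other genes were named by list, at most the 3 largest ratios beyond 2-fold at 1 FPKM or more in both groups of a line, with E2F1 and NOTCH1 named whatever their values. Promoters came from RefSeq and gene models from GENCODE release 29. The counting was tested on simulated tables. Python 3.11.15, numpy 2.4.6, pandas 2.3.3, scipy 1.17.1 and matplotlib 3.10.9 were used. The alternatives tried were other minimums, pseudocounts, a 1.5-fold rule, centring, means, joined rows and, added after seeing the data, subsets of members and centring across the tables.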

Additional observations from a re-analysis of the deposited data

Results flagged for a closer look

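GINS3, a subunit of the GINS complex of the replicative helicase, had a log2 ratio of ginkgolic acid over DMSO of −1.15 in NOTCH1-labelled cells and of 2.37 in MCF10A. It was singled out because its values lay beyond 2-fold in opposite directions in the 2 lines. This pattern, higher in MCF10A and lower in NOTCH1-labelled cells, was that of 1 of 41 members and of 4.88% of all genes. The difference was not tested, since each group has 1 value. GINS3 holds 2 annotated small RNAs, RNU6-1110P and RNU6-269P, whose part in these values was not tested, and the other GINS genes did not share its pattern.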

How the results depend on the processing

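No paired analysis was possible because the tables give 1 value per group, and for the same reason no replicate could be left out; a fit with the replicate block was not run. With a pseudocount of 1 FPKM, 3 members were at least 2-fold lower in MCF10A, the median ratio in NOTCH1-labelled cells was 0.86, and the median difference between lines was 0.79. With the median of genes at 1 FPKM or more in both groups removed (0.14 in NOTCH1-labelled cells and −0.11 in MCF10A), the medians were 0.85 in NOTCH1-labelled cells and −0.0010 in MCF10A, the median difference was 0.64, and 2 members (GINS3 and CCNE1) were lower in NOTCH1-labelled cells. With a 1.5-fold rule, 3 members were lower in NOTCH1-labelled cells, and 8 were higher and 11 lower in MCF10A. Without members that hold small RNAs, 0 were lower in NOTCH1-labelled cells and 0 had a ratio lower there by at least 1 than in MCF10A. Without members that overlap another coding gene, 13 were higher in NOTCH1-labelled cells, at a median of 0.81, with fewer members counted. The median level of NOTCH1-labelled cells over MCF10A with ginkgolic acid was 0.43 once the median of genes at 1 FPKM or more in all 4 groups was removed across the tables. The other 63 of 78 alternative values stayed within 1.5 times the count or within 0.1 of the median reported. Among these, 16 of 42 members were higher in NOTCH1-labelled cells with a pseudocount of 1 FPKM, where 21 were reported. Without members in loci over 1.5 times the gene length, 14 of 30 were higher there. In the main count 18.9% of all genes were higher there. Shares of all genes were not recounted with a pseudocount, with centring or for subsets. Of single genes, 9 of 84 ratios crossed the 2-fold line with the pseudocount and 7 of 84 with centring, and none of those beyond 2-fold changed sign. Depth limits are unknown, and ratios of members near 1 FPKM are the least certain.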

Other observations

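Both deposited tables list their rows in 2 runs, each sorted by chromosome, and no column says what separates them. In the NOTCH1-labelled table the first run had 4563 rows and the second 55099, and in that of MCF10A 14437 and 55790. Among named rows at 1 FPKM or more in both groups, the smallest absolute log2 ratio in the first run was 0.54 in NOTCH1-labelled cells and 0.37 in MCF10A, while in the second run absolute ratios spanned values close to 0 up to 7.32 in NOTCH1-labelled cells and 13.6 in MCF10A. Of all named rows at 1 FPKM or more in both groups, 2216 were in the first run and 14038 in the second in NOTCH1-labelled cells. In MCF10A the first run had 2762 such rows and the second 12078. Rows without a name numbered 2107 in the first run and 3348 in the second in NOTCH1-labelled cells. In MCF10A such rows numbered 11092 and 4885. The first run held 11 of the 42 replication genes in each table, counted without the minimum of 1 FPKM. In NOTCH1-labelled cells these were CDC45, LIG1, MCM4, MCM7, ORC1, POLD1, RFC1, RFC3, RPA3, RRM1 and TYMS, each at least 2-fold above its DMSO value. In MCF10A they were CCNE1, CDC6, CHAF1A, GINS3, MCM10, MCM3, ORC1, PCNA, POLA1, RFC1 and RRM1. Only ORC1, RFC1 and RRM1 were in the first run of both tables. The share of all genes in the first run of both was not counted, so this overlap describes the members alone. The second run held 10 of the 21 members at least 2-fold higher in NOTCH1-labelled cells (CDC6, CDT1, MCM2, GINS2, GINS4, POLE2, RFC2, RFC4, RFC5 and TK1) and GINS3, the 1 that was lower. In MCF10A it held RFC4 of the 4 higher and CCNE2 of the 6 lower.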
